A study of Mus musculus with 12 samples.

Results

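The RGS genes encode regulators of G protein signalling. The 10 studied here, Rgs1, Rgs2, Rgs4, Rgs5, Rgs7, Rgs8, Rgs16, Rgs17, Rgs18 and Rgs20, were matched by symbol among the 2398 genes of the count table. Rgs13 and Rgs21, which were also in the table with 2 and 0 counts, were not part of the set. They were measured by RNA sequencing in sorted mouse brain cells. The cells carried an EGFP reporter driven by Ndrg1, a gene of myelin-forming oligodendrocytes, and were sorted as live GFP-positive cells. All animals were C57BL/6 mice with floxed Lmna (Lmnafl/fl), the gene of lamins A and C, and the labels give their age both as day 60 after birth and as 8 weeks. The WT group was Cnp+/+;Lmnafl/fl. The KO group was CnpCre/+;Lmnafl/fl, so that Cre came from 1 allele of Cnp, an oligodendrocyte gene, and that allele was absent in WT. Each group had 3 biological replicates with 2 libraries each, and the labels do not say whether a replicate was 1 animal or a pool.

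G protein-coupled receptors act by loading G alpha subunits with GTP, and RGS proteins end that signal by speeding the hydrolysis of the bound GTP. The small proteins of the R4 subfamily (Rgs1, Rgs2, Rgs4, Rgs5, Rgs8, Rgs16 and Rgs18) are little more than the RGS domain, and several of them are made on demand after a stimulus. Rgs7 belongs to the R7 subfamily, long proteins that are stable only when bound to Gnb5, a G beta subunit. Rgs17 and Rgs20 belong to the RZ subfamily, which carries a string of cysteines and acts on Gnaz among other G alpha subunits. In the brain, Rgs4, Rgs7, Rgs8, Rgs17 and Rgs20 are best known from neurons, Rgs5 from pericytes, Rgs1 and Rgs18 from leukocytes and platelets, and Rgs2 and Rgs16 from many cell types that have been stimulated. The grouping below by likely source rests on this background, because a bulk measurement does not assign a transcript to a cell.

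The promoters of Rgs2 and Rgs16 are shown because these 2 genes had the highest levels of the 10 members. The 250 bases before each RefSeq start (GRCm38) are given 5' to 3' on the strand of the gene, at chr1:144004150-144004399 (minus strand) for Rgs2 and chr1:153740103-153740352 (plus strand) for Rgs16. Capitals mark a CCAAT box (CCAAT, or ATTGG on the other strand), the half-site of the cAMP response element (TGACG, or CGTCA on the other strand) and a match to GCGNGGGCG, the site of EGR factors, on the other strand.
Rgs2: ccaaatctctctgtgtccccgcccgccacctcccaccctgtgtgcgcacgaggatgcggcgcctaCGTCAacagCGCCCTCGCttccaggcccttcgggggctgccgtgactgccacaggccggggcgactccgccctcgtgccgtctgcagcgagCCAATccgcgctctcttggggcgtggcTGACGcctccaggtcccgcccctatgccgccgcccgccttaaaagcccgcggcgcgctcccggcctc
Rgs16: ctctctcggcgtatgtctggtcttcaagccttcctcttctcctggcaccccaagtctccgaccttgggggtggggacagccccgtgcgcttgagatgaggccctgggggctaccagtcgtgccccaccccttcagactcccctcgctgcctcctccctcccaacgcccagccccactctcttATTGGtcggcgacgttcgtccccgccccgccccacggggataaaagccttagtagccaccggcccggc

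Both windows held 1 CCAAT box, 90 to 94 bases before the start in Rgs2 and 64 to 68 bases before it in Rgs16. The Rgs2 window also held 2 half-sites of the cAMP response element and 1 EGR match, and the Rgs16 window held neither. Of 32851 windows of this length in the RefSeq table, 33.8% held CCAAT, 17.8% the half-site TGACG and 4.7% GCGNGGGCG, with both strands searched. The full element TGACGTCA and the AP-1 site TGANTCA were also searched on both strands and were in neither window, and they were in 1.55% and 6.75% of all windows. Both windows were rich in G and C, at 72.4% for Rgs2 and 66.4% for Rgs16 against a median of 52.4%. The table held windows for 7 of the 10 genes. Most of these features were not limited to Rgs2 and Rgs16. CCAAT was also in windows of Rgs4, Rgs5 and Rgs8, and the half-site in windows of Rgs4 and Rgs8. The windows of Rgs7 and Rgs17 also had 72.4% G and C. The EGR match was in Rgs2 alone.

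Of the 10 members, 9 lie on chromosome 1 and Rgs17 on chromosome 10 (RefSeq, GRCm38), the chromosomes that the table covers. Most lie in small clusters of genes. Rgs2 (143999338 to 144004149), Rgs1 (144244669 to 144249104) and Rgs18 (144752683 to 144775427) form one group, Rgs8 (153652959 to 153697669) and Rgs16 (153740353 to 153745468) another, and Rgs5 (169655501 to 169695813) and Rgs4 (169741477 to 169747642) the last. Rgs20 (4909573 to 5070299) and Rgs7 (175059076 to 175492862) stand alone on chromosome 1, and Rgs17 spans 5825663 to 5922412 on chromosome 10. Despite the shared domain, windows of 50 bases, the read length set for this comparison, could tell the members apart. The longest run shared by the coding sequences of 2 members was 24 bases, in Rgs8 and Rgs16, and the next 23 bases, in Rgs1 with Rgs2 and in Rgs1 with Rgs5. The first of each length is shown here from the GENCODE transcripts to give the scale of the overlap.
Rgs8 and Rgs16: tggcctgcgaggagttcaagaaga
Rgs1 and Rgs2: attgaattctggttggcttgtga

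No window of 50 bases was shared by transcripts of 2 members, apart from 1 window in Rgs4 and Rgs20. Overlap with genes on the opposite strand was larger. Of the 2339 exon bases of Rgs16, 236 were also exon of the antisense gene Gm28513, and of the 4239 of Rgs20, 127 were also exon of Atp6v1h and 125 of the pseudogene Gm17101. No source names the strand setting of the counting, so Rgs16 and Rgs20 are uncertain to that extent.

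The 10 members stood low to moderate in these cells and were led by Rgs2 and Rgs16. This order covers only these 10. The table holds genes of chromosome 1 and of chromosome 10 up to 111.3 Mb, so RGS genes elsewhere were not measured here. Levels of different genes were compared in CPM (read counts divided by the TMM-scaled total of the table, edgeR's usual unit) per kb of the longest GENCODE transcript. On this scale the mean over the 6 replicates was 32.3 ± 14.0 for Rgs2 and 15.1 ± 9.76 for Rgs16 (SD, n = 6). Rgs7 followed at 6.06 ± 2.16 and Rgs4 at 4.14 ± 2.28 CPM per kb. Rgs1, Rgs20 and Rgs17 lay between 1.1 and 1.90 CPM per kb, Rgs18 at 0.978, Rgs8 at 0.111 and Rgs5 at 0.0554. Rgs2 lay above 44.6% of the 1336 tested genes with a length, Rgs16 above 34.0% and Rgs5 above 0%. Summed over the 10 genes, the family had 166, 115 and 266 CPM in WT replicates 1 to 3, with 152, 295 and 172 CPM in KO replicates 1 to 3. Rgs2 and Rgs16 together gave between 52.4% and 78.7% of that sum.

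Neighbours in this order had overlapping ranges over the 6 replicates in every case. Compared within replicates, only the step from Rgs2 to Rgs16 held in all 6, so below it the order is firm only over wider steps. Rgs2 exceeded Rgs16 in 6 of 6 replicates and Rgs16 exceeded Rgs7 in 5 of 6. Rgs7 exceeded Rgs4 in 3 of 6 replicates, and Rgs1 exceeded Rgs20 in 3 of 6. With the union of exons as length, Rgs4 passed Rgs7, and Rgs20 fell to place 8. The longest transcript of Rgs1 keeps an intron, and with the longest protein-coding transcript its level was 2.89 CPM per kb and its place was the same. A total of 7 members reached 1 CPM per kb in the mean, and 4 did so in the lowest of their 6 replicates.

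**Figure D1:**
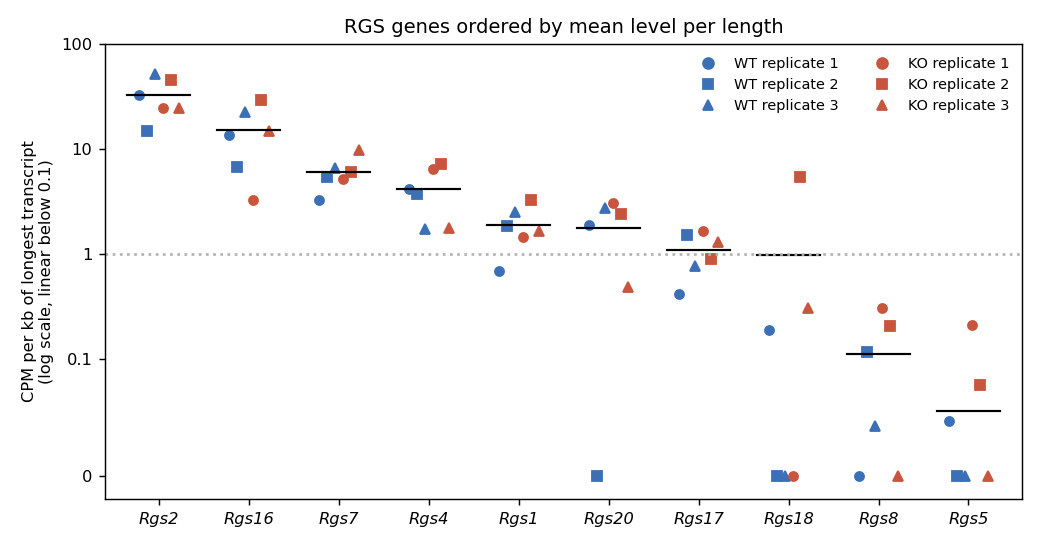
Level of each RGS gene in CPM per kb of longest transcript (vertical axis, log scale that is linear below 0.1), with 1 point for each of the 6 replicates and a bar at their mean. Rgs2 (mean 32.3) and Rgs16 (mean 15.1) lead, and Rgs20, Rgs18, Rgs8 and Rgs5 have points at 0. The dotted line marks 1 CPM per kb.

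Neighbouring genes differed widely in level in some cases. Of the neighbours Rgs4 and Rgs5, Rgs4 had 360 counts over the 6 replicates and Rgs5 had 6, and per length the means were 4.14 and 0.0554 CPM per kb. Of Rgs8 and Rgs16, Rgs16 had 1154 counts and Rgs8 had 26, and per length the means were 15.1 and 0.111 CPM per kb. Rgs1 and Rgs18, also neighbours, had means of 1.90 and 0.978 CPM per kb and ranges that overlapped. The mean of Rgs18 rested on KO replicate 2, with 69 of its 74 counts. By the median over the 6 replicates the levels were 1.75 for Rgs1 and 0.0935 CPM per kb for Rgs18.

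No member was called different between KO and WT. In edgeR's quasi-likelihood test over all 1484 genes that passed the filter on low counts, 0 of the 7 members tested had an adjusted p under 0.05, where the share called among all genes was 0%. At an unadjusted p under 0.05 there were 0 members, against 3.98% of all genes. DESeq2 called 0 members against 0.472% of all genes, and limma-voom 0 members against 0%. The replicates of the genotypes overlapped in each of the 7 members, where 8.49% of all genes had replicates that did not overlap. The median log2 fold change, KO over WT, was 0.35 over the 7 members and -0.01 over all genes tested. It was above 0 in 6 of 7 members and in 49.5% of all genes. The adjusted p was 0.994 for each member.

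These tests were imprecise. The SE of the log2 fold change had a median of 0.64 over the 7 members, 0.51 over the 528 tested genes in the same range of CPM and 0.21 over all genes tested. The other 3 members, Rgs5, Rgs8 and Rgs18, did not pass the filter on low counts. In an edgeR fit without that filter, 1 of the 10 members, Rgs18, had an unadjusted p under 0.05, where the share among all genes was 4.09%, and 0 were called after adjustment. The labels call the replicates biological without naming animals. A p-value here sets the difference between genotypes against the spread between these samples, which may be single animals or pools. In bulk samples, fewer cells of a type and less RNA per cell cannot be told apart.

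**Figure D2:**
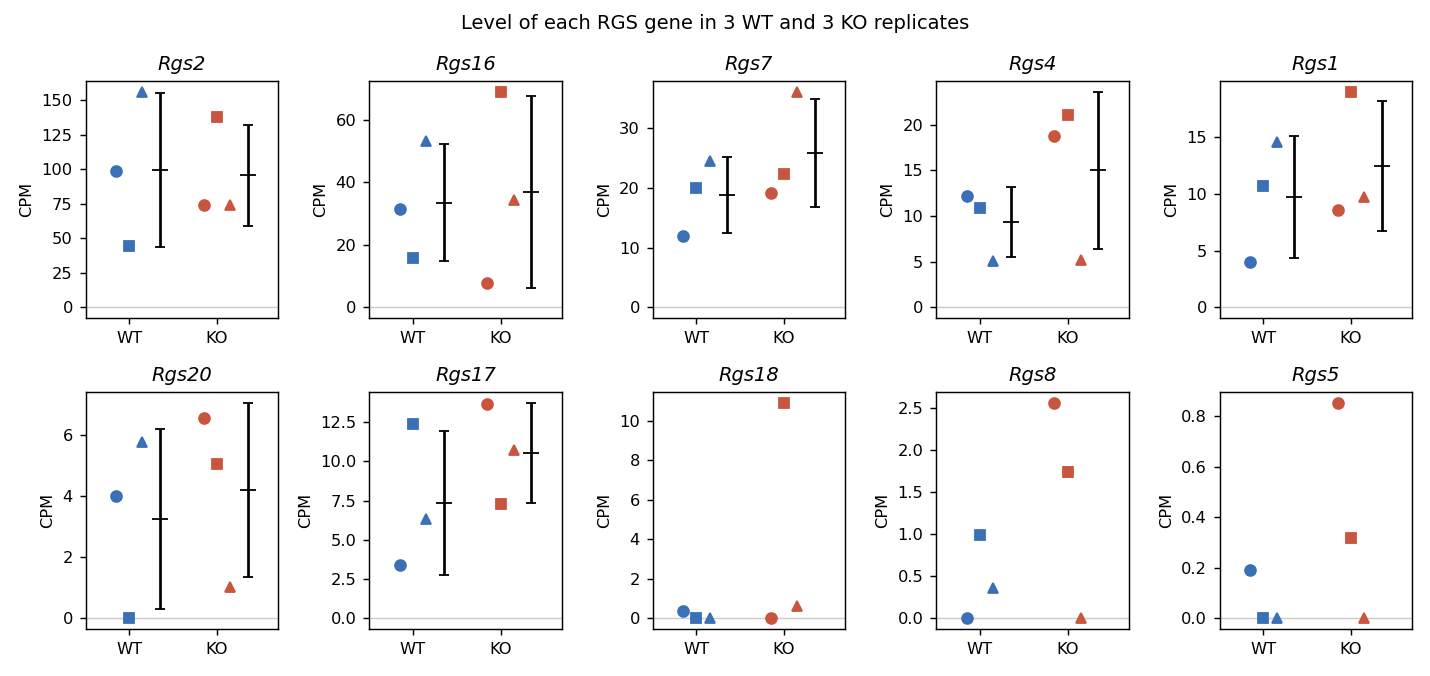
CPM of each RGS gene (vertical axis, own scale in each panel) in the WT and KO replicates, with 1 point for each replicate and, for the 7 tested genes, the mean and SD of the group beside them (n = 3). Circles, squares and triangles are replicates 1, 2 and 3. The groups overlap in each tested gene, and a single KO replicate holds nearly all of Rgs18.

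**Figure D3:**
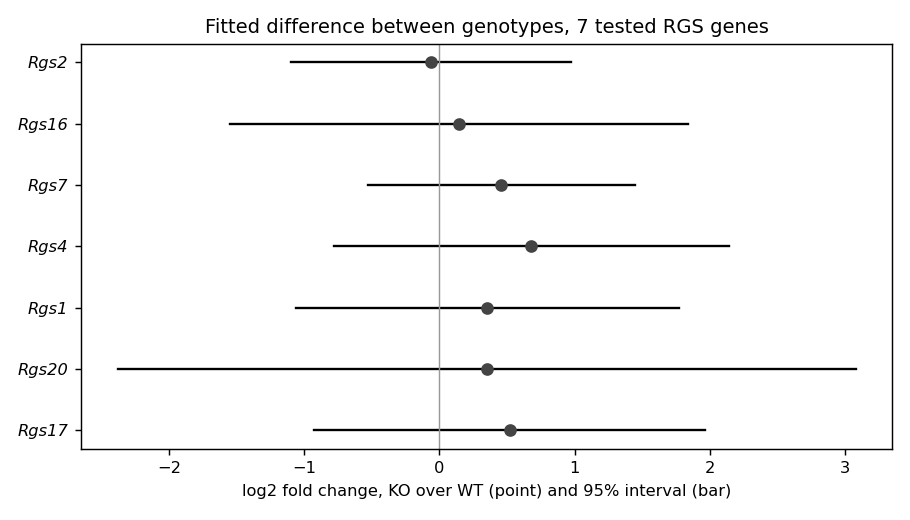
Fitted log2 fold change, KO over WT (horizontal axis), for the 7 tested RGS genes as points with 95% intervals as bars. Each interval spans 0, with the narrowest for Rgs7 (-0.53 to 1.44) and the widest for Rgs20 (-2.38 to 3.08).

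Rgs2 acts mainly on G alpha q and is an early response gene in many cells. Its level was 98.6, 44.5 and 156 CPM in WT replicates 1, 2 and 3, and 74.0, 138 and 74.5 CPM in KO replicates 1, 2 and 3. The highest and the lowest value were both in WT, and the KO values lay between them. The log2 fold change was -0.06 ± 0.45 (SE), with a 95% interval from -1.10 to 0.97, which as a ratio is 0.468 to 1.96. It became 0.43 without WT replicate 3, 0.087 without KO replicate 1 and 0.086 without KO replicate 3, so its sign rested on single replicates.

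Rgs16 acts on G alpha i and G alpha q and is likewise induced after stimulation. It stood at 31.5, 15.9 and 53.1 CPM in WT and at 7.69, 69.0 and 34.3 CPM in KO. The range was 8.98-fold over the 6 replicates, and KO held both its highest and its lowest value. In the fit the log2 fold change was 0.15 ± 0.73 (SE), with an interval from -1.55 to 1.84. It became -0.66 without KO replicate 2 and -0.17 without WT replicate 2.

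Rgs2 and Rgs16 were near to some immediate early genes and far from others, by a measure that includes the size of change. Tissue dissociation can induce such genes. Likeness was measured as the root-mean-square difference of log2(CPM + 1) over the 6 replicates, after the mean of each gene was subtracted. The 3 tested genes most like Rgs2 were Ier5 (0.18), Gadd45b (0.20) and Plcd4 (0.21). For Rgs16 they were Dtl (0.39), Atf3 (0.41) and Tnfaip3 (0.45). Of these, 2 of the 3 in each case came from the 8 genes of the early response list that were in the table. WT replicate 3, KO replicate 2 and WT replicate 1 were the highest for Rgs2, and they were also the highest for Ier5, Gadd45b, Atf3, Btg2 and Egr2. The others of the list were farther from Rgs2, with Atf3 at 0.59, Tnfaip3 at 0.68, Btg2 at 0.74, Ccn2 at 1.33, Egr2 at 1.34 and Ptgs2 at 1.4, against 0.60 for the spread of Rgs2 about its own mean. A gene with a wider range is farther by this measure even where its order is the same. Atf3 and Btg2 had the replicate order of Rgs2, with ranges of 7.36-fold and 14.3-fold against 3.51-fold for Rgs2. For Egr2 the range was 26.4-fold. Ccn2 was highest in KO replicate 1, where Rgs2 and Rgs16 were low.

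The likeness was not limited to early genes. The neuronal marker Syt1, highest in WT replicate 3, was nearer to Rgs2 (0.44) than 6 of the 8 early genes were, and it was as near to Rgs16 (0.68) as Btg2 was (0.69). Rgs2 and Rgs16 themselves differed by 0.70.

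Btg2, an antiproliferative early gene, and Egr2 had the highest CPM of the early response list. Egr2, a transcription factor that binds the EGR site, stood at 680.4, 78.5 and 1315 CPM in WT and at 49.8, 930.1 and 485 CPM in KO. The lowest Egr2 values, in KO replicate 1 and WT replicate 2, fell in the replicates with the lowest Rgs16. Ier5, an early gene of the stress response, stood at 120.1, 44.0 and 151 CPM in WT and at 64.9, 115 and 65.4 CPM in KO. Over the 8 early response genes together the sum ran from 451 to 4046 CPM over the WT replicates and from 622 to 2847 over the KO replicates, with 0 genes called in either direction and a median log2 fold change of -0.28. Their part in the levels of Rgs2 and Rgs16 was not tested.

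**Figure D4:**
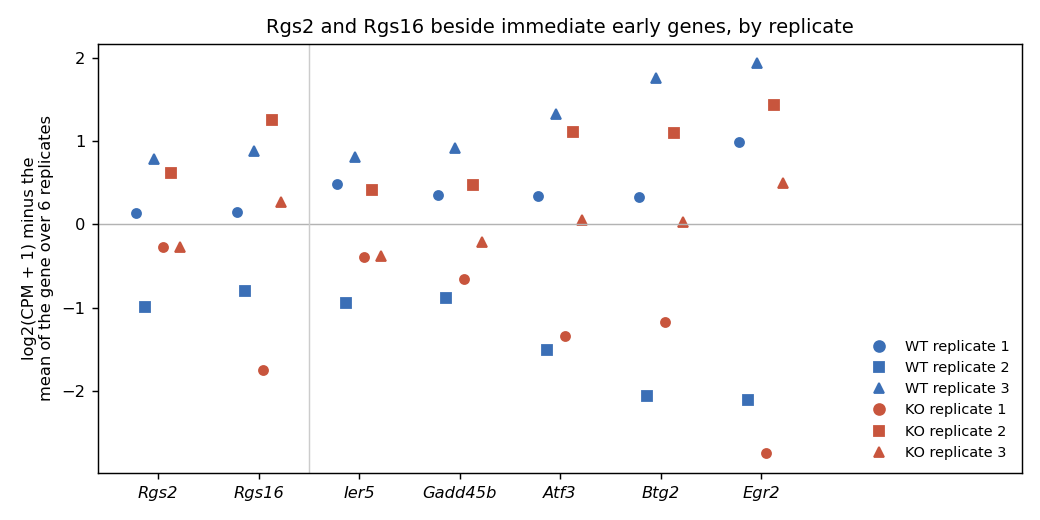
Level of Rgs2 and Rgs16 (left of the grey line) and of 5 immediate early genes in each replicate, as log2(CPM + 1) minus the mean of the gene over the 6 replicates (vertical axis). WT replicate 3 and KO replicate 2 lie above 0 in all 7 genes, and WT replicate 2 and KO replicate 1 lie below 0.

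Rgs1 limits chemokine receptor signalling in lymphocytes and is also made by activated microglia. It stood at 3.99, 10.7 and 14.6 CPM in WT and at 8.54, 19.0 and 9.72 CPM in KO. KO replicate 2 was the highest, and the groups overlapped. Its fitted log2 fold change was 0.35 ± 0.62 (SE), with an interval from -1.06 to 1.77, and it became -0.09 without KO replicate 2 and -0.02 without WT replicate 1. The genes most like Rgs1 in pattern were Rab36 (root-mean-square difference 0.32), a gene without a symbol in the RefSeq table (Entrez ID 100038681, 0.35) and Trak2 (0.35). The leukocyte marker Ptprc was far from it, at 1.17 against 0.63 for the spread of Rgs1 about its own mean.

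Rgs18 is known from platelets, megakaryocytes and myeloid cells. It had 2, 0 and 0 counts in WT and 0, 69 and 3 counts in KO, so that KO replicate 2 held nearly all of them. In that replicate the level was 10.9 CPM (exact 95% Poisson interval 8.5 to 13.8, counting error only). For a count of 0, a fixed limit of 3 counts was used instead of that interval. It is 0.745 CPM in WT replicate 2, 0.540 CPM in WT replicate 3 and 0.854 CPM in KO replicate 1. Rgs18 did not pass the filter. In the edgeR fit without it, Rgs18 had an unadjusted p of 0.036 and an adjusted p of 0.989, with KO replicate 2 as the one replicate above 3 counts.

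The same replicate had the highest sum of leukocyte and microglia markers. Their 8 genes were all in the table and tested, none was at 0, and their sum ran from 249 to 337 CPM over the WT replicates and from 338 to 835 over the KO replicates, with 835 CPM in KO replicate 2 and 381 CPM in KO replicate 1. All 8 had a log2 fold change above 0, with 0 called and a median of 0.66. Lilrb4a, an inhibitory receptor of myeloid cells, stood at 11, 5.71 and 8.64 CPM in WT and at 28.2, 91.6 and 19.0 CPM in KO. Fcer1g, the shared gamma chain of Fc receptors, peaked in KO replicate 2 at 136 CPM. Selp, the selectin of platelets and endothelium, had 17 counts in KO replicate 2, 1 in WT replicate 1 and 0 in the other 4 replicates. Sele, an endothelial selectin, had 7 counts there and 2 in WT replicate 1. The part of these cells in the values of Rgs1 and Rgs18 was not tested.

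**Figure D5:**
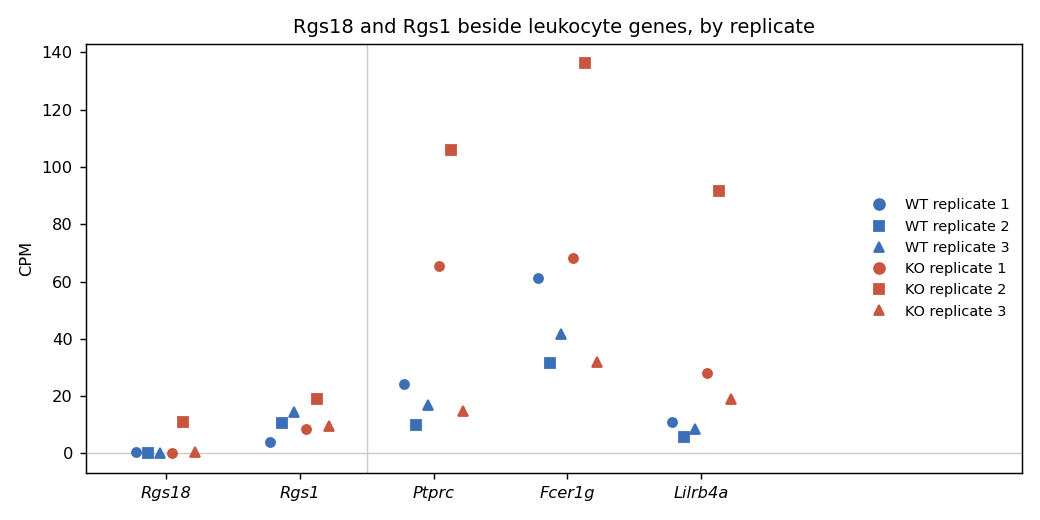
CPM (vertical axis) of Rgs18 and Rgs1 (left of the grey line) and of 3 leukocyte genes in each of the 6 replicates. Rgs1 shares its highest replicate with them but not its order over the others. KO replicate 2 is the highest point for each of the 5 genes, with 10.9 CPM for Rgs18 and 91.6 CPM for Lilrb4a.

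Rgs5, among the most used markers of pericytes, was nearly absent. It had 1, 0 and 0 counts in WT and 3, 2 and 0 counts in KO. The highest level, in KO replicate 1, was 0.854 CPM (exact 95% Poisson interval 0.176 to 2.5). It did not pass the filter, and without the filter its unadjusted p in edgeR was 0.296. The other mural marker, Des, an intermediate filament of muscle and mural cells, had 1 count in WT replicate 2, 5 in KO replicate 2 and 0 elsewhere. Genes of fibroblasts and matrix were present beside them. Over the 8 mural and fibroblast markers, the sum ran from 845 to 1068 CPM over the WT replicates and from 1001 to 1308 over the KO replicates, with 7 tested, 0 called and a median log2 fold change of 0.43. Col6a2, a collagen VI chain, stood at 526 ± 160.0 CPM in the WT group against 640.0 ± 226 in the KO group (SD, n = 3). Fn1, fibronectin, was the other of the 2 highest genes of the list, with 330 CPM in KO replicate 1 as its largest value. In WT replicate 3, Col6a2 alone gave 711 of the 845 CPM. Fn1 (38.5 CPM), Dcn (28.8), Col6a1 (27.5), Col3a1 (16.2) and Lum (0) had their lowest values in that replicate, which the sum does not show. Col5a2 was also lowest there, but varied less over the WT replicates, from 23.4 to 26.4 CPM. Its KO replicates stood at 29.3, 44.2 and 26.9 CPM. It was the 1 of the 7 tested markers whose groups did not overlap, where 8.49% of all genes did not.

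Rgs4, the neighbour of Rgs5, acts on G alpha i and G alpha q and is known from neurons and from mural cells. It stood at 12.2, 10.9 and 5.04 CPM in WT and at 18.8, 21.0 and 5.17 CPM in KO. KO replicates 1 and 2 lay above all WT replicates, and KO replicate 3 lay among the lowest. The log2 fold change was 0.68 ± 0.64 (SE), with an interval from -0.78 to 2.14, and without KO replicate 3 it was 1.09 and the groups no longer overlapped, where 15.4% of all genes did not overlap without that replicate. The adjusted p of Rgs4 was 0.929 or more in each edgeR fit that left out a replicate. Bcl2 (0.33), Sp110 (0.35) and Nt5dc1 (0.35) were most like it in pattern.

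Of the 5 neuronal markers, 3 had their highest value in WT replicate 3, where Rgs4 had its lowest. Scg2, a protein of secretory granules, reached 226 CPM in WT replicate 3, where the other replicates had 2.66 to 36.7. Syt1, a synaptic calcium sensor, reached 21.6 CPM there, where the others had 2.73 to 10.1. Slc17a8, a vesicular glutamate transporter, also peaked there, at 1.62 CPM (9 counts). Cacna1e, a calcium channel, peaked in KO replicate 3 at 1.65 CPM (8 counts) and Syt2 in WT replicate 1 at 0.380 CPM (2 counts). Such low counts do not order the replicates firmly. Of the 5 markers 2 were tested and 0 called, with a median log2 fold change of -1.47. Their sum ran from 7.60 to 250 CPM over the WT replicates and from 12 to 48.3 over the KO replicates.

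Rgs8, best known from Purkinje cells, had 0, 4 and 2 counts in WT and 9, 11 and 0 counts in KO. Its highest level was 2.56 CPM in KO replicate 1 (exact 95% Poisson interval 1.17 to 4.86). It did not pass the filter, and its unadjusted p in the edgeR fit without the filter was 0.355.

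Rgs7, the R7 member that pairs with Gnb5, was the highest member after Rgs2 and Rgs16 per length of the longest transcript. It stood at 12, 19.9 and 24.5 CPM in WT and at 19.1, 22.3 and 36.0 CPM in KO. KO replicate 3 was the highest and WT replicate 1 the lowest, and its range over the replicates, 3.01-fold, was the narrowest among the members with counts in all 6 replicates. The log2 fold change was 0.46 ± 0.43 (SE), with an interval from -0.53 to 1.44, and it stayed above 0 in each alternative, from 0.14 to 0.71. Among the genes most like it in pattern were Glb1l (0.19) and Ptprq (0.20). In KO replicate 3, where Rgs7 was highest, Scg2 and Syt1 stood at 5.38 and 5.58 CPM and Cacna1e had its highest value, of only 8 counts. In WT replicate 3, where Scg2 and Syt1 peaked, Rgs7 had its second highest value.

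The RZ members Rgs17 and Rgs20 had low levels, and Rgs20 had no count in 1 replicate. Rgs17 stood at 3.42, 12.4 and 6.30 CPM in WT and at 13.7, 7.28 and 10.8 CPM in KO. WT replicate 2 lay among the KO values, and the groups did not overlap without it, where 17.1% of all genes did not overlap. The log2 fold change of Rgs17 was 0.52 ± 0.64 (SE) with an interval from -0.93 to 1.97, and 1.11 without WT replicate 2. Rgs20 had 21, 0 and 32 counts in WT and 23, 32 and 5 counts in KO, which is 3.99, 0 and 5.76 CPM and 6.55, 5.06 and 1.03 CPM. For the count of 0 in WT replicate 2, the fixed limit of 3 counts is 0.745 CPM. The log2 fold change of Rgs20 was 0.35 ± 1.2 (SE), with an interval from -2.38 to 3.08, and it became -0.21 without WT replicate 2 and -0.10 without KO replicate 1. Of the coding sequences of the members, those of Rgs17 and Rgs20 were the most alike, with 69.3% identity over 678 aligned bases.

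Of 23 further RGS-domain genes and RGS partners listed, 3 were in the table and 1, Rgsl1, was tested, with 0 higher and 0 lower. Those outside the table were not measured here. Rgs13 had 2 counts, in WT replicate 1, and Rgs21 had 0 in all replicates. Rgsl1, an RGS-like gene, stood at 2.55 ± 2.56 CPM in the WT group against 3.6 ± 1.97 in the KO group (SD, n = 3).

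Other genes of the pathway were also measured, and none was called. Of 33 G protein subunits listed, 4 were in the table and tested, with 0 higher, 0 lower and a median log2 fold change of 0.20. Gng7, a G gamma subunit, stood at 2089 ± 135 CPM in the WT group against 2107 ± 200.2 in the KO group (SD, n = 3), and Gna11, a G alpha subunit of the q class that Rgs2 can act on, at 1201 ± 162 CPM in the WT group against 1272 ± 175 in the KO group. Gnaz, the partner of the RZ members, stood at 61.7, 32.8 and 71.6 CPM in WT and at 54.7, 62.8 and 88.3 CPM in KO. Gna15, a G alpha subunit of blood cells, was the 1 of the 4 tested subunits whose replicates did not overlap, where 8.49% of all genes did not. It stood at 5.68 ± 1.05 CPM in the WT group against 11.9 ± 2.18 in the KO group, with an edgeR adjusted p of 0.994. Gnaz and Gna15 were named after their values were seen.

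Of 55 G protein-coupled receptors listed, 38 were in the table and 13 were tested, with 0 higher, 0 lower and a median log2 fold change of 0.38. Adora1, the adenosine A1 receptor that signals through G alpha i, stood at 3598 ± 281 CPM in the WT group against 3922 ± 235 in the KO group (SD, n = 3), and Gpr37l1, a receptor best known from astrocytes, at 175 ± 115 CPM in the WT group against 302 ± 129 in the KO group. Of 40 effectors and second messenger enzymes listed, 20 were in the table and 18 tested, with 0 higher, 0 lower and a median log2 fold change of -0.01. Plcl1, a phospholipase C-like protein, stood at 2960 ± 61.1 CPM in the WT group against 2682 ± 496 in the KO group, and Kcnj10, an inward rectifier potassium channel of glia, at 2415 ± 431 CPM in the WT group against 2544 ± 271 in the KO group.

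The identity of the cells was checked on markers in the table. The 6 markers of myelinating oligodendrocytes summed to between 53259 and 60187 CPM in WT and between 59468 and 64215 CPM in KO, with Csrp1 and Tmeff2 the highest by CPM, not corrected for length. The 5 astrocyte markers, led by S100b, which oligodendrocytes also make, and by Gja1, summed to between 3430 and 6294 CPM in WT and between 4666 and 7482 CPM in KO, with 0 called in either list. Median log2 fold changes were 0.16 and 0.25. Counts per replicate in the table ranged from 3694551 to 6093336, over genes of chromosome 1 and of chromosome 10 up to 111.3 Mb. Lmna and Cnp are not analysed here, so the deletion was not checked.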

How the data were processed

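RNA was sequenced from sorted oligodendrocytes of 3 WT and 3 KO replicates, with 2 libraries each. The authors deposited whole-number counts for each gene in each library. HISAT2, fastp and featureCounts, with SAMtools 1.4.1, FastQC, CASAVA 1.8.2 and DESeq2 1.38.1, are named on build mm10 in the submitters' processing notes. Settings were not given in the sources used here. One incomplete line of the table was left out, and 2226 of 2398 gene IDs matched a RefSeq symbol (GRCm38).

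The 2 libraries of a replicate gave chi-square p values from 0.0594 to 0.486 over genes with at least 20 counts, and were summed. The genotypes were compared in edgeR 4.0.16 (R 4.3.3). TMM factors lay between 0.951 and 1.05, low genes were removed by filterByExpr, and glmQLFit was run with robust estimation. Benjamini-Hochberg adjustment covered all 1484 genes tested, at 0.05. With 3 against 3, an exact permutation test of 1 gene cannot fall under 0.1. CPM were scaled by the TMM factors to the counts of the table, which are part of each library. Levels per kb used the longest transcript in GENCODE M21. Fits were tested on simulated counts. Alternatives were other size factors, filters, DESeq2 1.42.0, limma 3.58.1, a replicate block, single libraries, 12 separate libraries, other lengths and leaving out each replicate.

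The members and gene lists were chosen with earlier results of these data known. All 10 members are named, and of each list the called genes or the 2 of highest CPM. Where a member had a mean of at least 50 counts, the 3 tested genes of most similar pattern are named, except a few genes not reported here. Other genes were named after their values were seen.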

Additional observations from a re-analysis of the deposited data

How the results depend on the processing

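No member was called under any alternative (smallest adjusted p 0.415, for Rgs7 with 12 separate libraries). Over all genes, the count called was 0 in edgeR, 7 with DESeq2 and 49 with edgeR on 12 libraries as separate samples, which treats repeat libraries as independent by construction. For the DESeq2 count the cause was not tested. Leaving out each replicate called 0 genes, and 34 to 86 genes had an unadjusted p under 0.05, where all replicates gave 59. The count of members whose groups did not overlap went from 0 to between 0 and 1 (Rgs17 without WT replicate 2, where 17.1% of all genes did not overlap, and Rgs4 without KO replicate 3, where 15.4% did not). Members at 1 CPM per kb numbered 7 in the mean, 4 by the lowest replicate, 6 with the union of exons, 9 with coding length and 7 to 8 without a replicate. The longest protein-coding transcript as length, chosen after seeing the data, gave 7.

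Of 101 refits of the 7 members, 87 kept the sign of the log2 fold change and 14 reversed it. Rgs2 (-0.06) became 0.042 with limma-voom, 0.015 with the replicate block and 0.046 with the second library only, and ran from -0.42 to 0.43 without a replicate. Rgs16 (0.15) became -0.22 with the replicate block and ran from -0.66 to 0.66. Rgs20 (0.35) became -0.34 with the first library only and ran from -0.21 to 1.05. Rgs1 (0.35) ran from -0.093 to 0.77. Rgs4, Rgs7 and Rgs17 stayed above 0 in every refit. The cause of these changes was not tested. The deviations of same-numbered replicates had correlations of 0.0033, -0.33 and 0.15, so the numbers do not show that samples were paired, and the replicate block called 0 genes. Depth limits Rgs5, Rgs8, Rgs18 and Rgs20. For Rgs2 the counting interval, 90.3 to 107 CPM in WT replicate 1, was narrower than the spread over replicates.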
